A study of Mus musculus with 4 samples.

Results

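Lcn2, Saa3, Serpina3n, C3 and C4bp are 5 acute-phase and complement genes measured in mouse aortic endothelial cells. They were selected by gene symbol from the authors' deposited table, which names 398 of the 35557 transcript clusters (groups of probes along one gene) on the array, and all 5 were found, each with 1 row. That table lists clusters that differed at least 2-fold between the genotypes on both array pairs of this study. The genotype difference of the 5 genes therefore follows from how they were chosen, and it is given as a description.

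The 2 groups were wild type cells of the C57BL/6J strain and cells of the same strain labelled hcatTg, which overexpress human catalase, with 2 arrays each. All cells were grown to 80% confluence, held without serum for 12 h, then given medium with 10% fetal bovine serum for 12 h. The sources used here do not give the animals' age or sex, the promoter that drives the transgene, or the number of animals behind each culture. They also do not say that the arrays came from separate cultures, so p-values measure only the spread between these RNA samples, which may be technical. The level of catalase itself was not analysed here, because its cluster is not among the named ones. The authors' table sets the first arrays of the genotypes against each other as one time and the second arrays as another, and these are called the first and second pair. In a fit with both genotype and pair, the only spread left is the change of the genotype difference between the pairs.

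The acute-phase response is a change in secreted proteins that follows infection or tissue injury. It is strongest in the liver, and endothelial cells, fibroblasts and other tissue cells also take part. It is driven mainly by interleukin 6 and interleukin 1, which act through STAT3, C/EBP and NF-kB transcription factors. Complement is a cascade of plasma proteins that coats microbes and damaged cells. C3 is its central component, and regulators such as C4b-binding protein limit it on host surfaces.

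The DNA just upstream of each of the 5 genes is shown as a description. Each line gives the 250 bases before the gene's start, 5′ to 3′ on the strand of the gene, from the RefSeq promoter table of GRCm38.p6. The windows are chr2:32387740-32387989 on the minus strand for Lcn2, chr7:46715677-46715926 on the minus strand for Saa3, chr12:104406458-104406707 on the plus strand for Serpina3n, chr17:57228137-57228386 on the minus strand for C3 and chr1:130661619-130661868 on the minus strand for C4bp. Capitals mark matches to TTNNGNAA, the palindrome-like core bound by C/EBP factors, on either strand.
Lcn2: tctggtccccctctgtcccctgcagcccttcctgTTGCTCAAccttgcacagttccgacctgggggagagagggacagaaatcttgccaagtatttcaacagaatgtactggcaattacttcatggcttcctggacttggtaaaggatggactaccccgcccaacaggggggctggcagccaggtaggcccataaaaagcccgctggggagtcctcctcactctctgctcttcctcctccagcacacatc
Saa3: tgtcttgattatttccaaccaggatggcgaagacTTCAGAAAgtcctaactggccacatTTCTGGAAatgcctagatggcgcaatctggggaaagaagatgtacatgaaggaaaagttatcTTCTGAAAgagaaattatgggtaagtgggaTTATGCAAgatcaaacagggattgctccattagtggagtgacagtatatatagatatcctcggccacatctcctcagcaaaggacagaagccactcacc
Serpina3n: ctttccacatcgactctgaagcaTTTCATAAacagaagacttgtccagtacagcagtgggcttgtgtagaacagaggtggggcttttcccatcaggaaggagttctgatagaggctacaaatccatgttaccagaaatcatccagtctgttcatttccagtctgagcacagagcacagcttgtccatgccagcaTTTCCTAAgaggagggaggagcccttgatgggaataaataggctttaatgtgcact
C3: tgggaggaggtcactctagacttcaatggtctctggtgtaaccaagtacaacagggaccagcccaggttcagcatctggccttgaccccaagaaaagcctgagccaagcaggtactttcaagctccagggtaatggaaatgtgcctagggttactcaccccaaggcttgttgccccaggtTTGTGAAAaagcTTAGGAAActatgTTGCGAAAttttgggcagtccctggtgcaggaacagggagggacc
C4bp: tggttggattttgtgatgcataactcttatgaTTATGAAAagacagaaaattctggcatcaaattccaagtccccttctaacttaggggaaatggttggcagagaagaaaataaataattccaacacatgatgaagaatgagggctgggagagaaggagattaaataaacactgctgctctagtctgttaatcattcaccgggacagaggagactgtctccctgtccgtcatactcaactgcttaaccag

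All 5 windows held the C/EBP letters, with 4 matches in Saa3, 3 in C3, 2 in Serpina3n and 1 each in Lcn2 and C4bp. The same letters were found in 36.8% of all 32851 promoter windows of this length, so they are common. One of the C3 matches, TTGCGAAA, fits the motif on both strands and lies 45 to 38 bases before the start. None of the 5 windows held the STAT letters TTCNNNGAA (7.02% of all windows), the NF-kB consensus (7.25%) or TATAAA (12.4%). All 4 motifs were searched on both strands. A match describes the letters only, and a missing match refers to these 250 bases only.

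Lcn2 encodes lipocalin 2, a secreted protein that binds iron-loaded bacterial siderophores. Its deposited log2 level was 5.67 and 10.58 on wild type arrays 1 and 2, and 4.0 and 4.59 on hcatTg arrays 1 and 2. The second wild type array stood far above the other 3, and the genotypes did not overlap. hcatTg was lower by 1.66 log2 units in the first pair and by 5.98 in the second, the lowest value of all 35557 clusters in that pair. Over its 2 arrays wild type averaged 8.12 ± 3.47 and hcatTg 4.30 ± 0.417 (mean ± SD, n = 2 each).

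Saa3 encodes a serum amyloid A protein that in mice is made largely outside the liver. Its level was 5.48 and 10.52 on the wild type arrays and 3.98 and 7.10 on the hcatTg arrays. The genotypes overlapped, because the second hcatTg array lay above the first wild type array. The genotype difference was -1.49 in the first pair and -3.42 in the second, and its mean of -2.46 was smaller than the wild type SD of 3.56 (n = 2).

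Serpina3n encodes a secreted serine protease inhibitor related to human alpha-1-antichymotrypsin. Its level was 6.92 and 10.70 in wild type and 4.72 and 6.04 in hcatTg, with no overlap. The difference was -2.21 in the first pair and -4.66 in the second. Serpina3n and Saa3 belong to families of similar neighbouring genes, so their probes may also take up RNA of a close copy.

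For C3 the first and second wild type arrays read 8.50 and 11.21, and the hcatTg arrays read 7.08 and 8.92. The genotypes overlapped, since the second hcatTg array exceeded the first wild type array. C3 had the smallest genotype difference of the 5 genes, -1.42 in the first pair and -2.29 in the second.

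C4bp encodes the chain of C4b-binding protein, which helps to inactivate complement C4b. Its level was 9.59 and 12.04 in wild type and 5.93 and 7.64 in hcatTg, with a clear gap between the genotypes. The difference was -3.66 in the first pair and -4.40 in the second, the most even of the 5 in relative terms. Wild type averaged 10.82 ± 1.73 and hcatTg 6.78 ± 1.20 (mean ± SD, n = 2 each). The mean difference, -4.03, was 2.70 times the SD between arrays of one genotype, against 1.71 times for Serpina3n, 1.55 for Lcn2, 1.13 for C3 and 0.829 for Saa3.

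**Figure D1:**
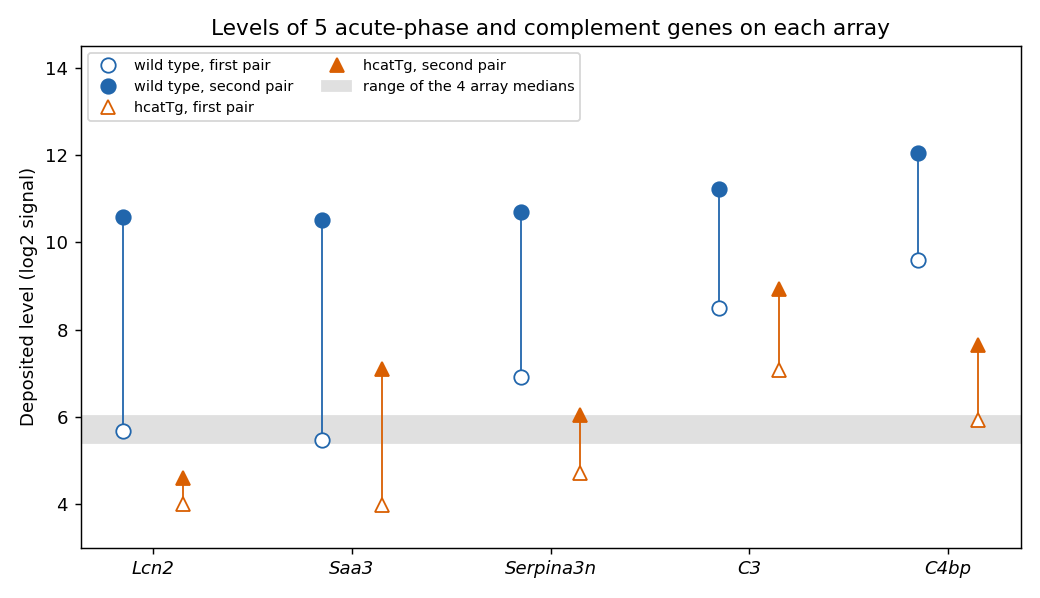
Deposited log2 level (vertical axis) of each gene on the 4 arrays, with wild type as circles, hcatTg as triangles, the first pair open and the second pair filled; vertical lines join the 2 arrays of a genotype, and the grey band is the range of the array medians. The second wild type array is the highest for all 5 genes and the first hcatTg array the lowest, and the genotypes overlap for Saa3 and C3.

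The order of the arrays was alike for the 5 genes. The second wild type array was the highest and the first hcatTg array the lowest in 5 of 5, which was also true of 92.5% of the 305 clusters that the authors' deposited table lists as lower and of 29.6% of all clusters. For Lcn2, Serpina3n and C4bp the first wild type array came next, and for Saa3 and C3 the second hcatTg array did. As a rank within the array, which does not depend on scale, Lcn2 moved from percentile 48.4 to 93.5 between the wild type arrays and from 21.4 to 24.4 between the hcatTg arrays. Saa3 moved from 44.5 to 93.3 and from 20.9 to 63.1, and C4bp from 92.3 to 97.8 and from 58.2 to 68.6.

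The selection of the table sets the following counts, and nothing is read from them. At least 2-fold lower in hcatTg in both pairs were 5 of the 5 genes and 1.18% of all clusters. Both hcatTg arrays lay below both wild type arrays for 3 of the 5 genes, against 17.8% of all clusters, and for 3 against 10.8% after median centring of each array. After quantile normalization the count was 4, against 13% of all clusters, because C3 no longer overlapped. limma called 0 of the 5 genes lower at an adjusted p below 0.05, against 0.00562% of all clusters. With the array pair as a replicate block it called 5, against 2.15%, and with block and median centring 0, against 0.0281%. The median difference was -3.43 over the 5 genes, -1.36 over the 398 named clusters and -0.18 over all 35557. In the authors' deposited table the smallest fold of the members is 3.02 (C3, first time). Ugp2 and Foxf1a are nearest to the 2-fold limit there, at 2.004 and 2.006. On the deposited log2 values the first-pair fold of C3 was smaller, at 2.67. After median centring its first-pair difference was -1.07 log2 units, which is near the limit.

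Single arrays carried much of these differences. Without wild type replicate 2, the mean difference was -1.37 for Lcn2, -1.54 for Serpina3n, -0.50 for C3, -2.81 for C4bp and 0.06 for Saa3, the only one of the 5 to change sign when an array was left out. Without wild type replicate 1 it was -6.28 for Lcn2, -5.33 for Serpina3n, -4.98 for Saa3 and -3.21 for C3. Without hcatTg replicate 1, Saa3 differed by -0.90 and C3 by -0.94, and without hcatTg replicate 2 Saa3 differed by -4.01. Leaving out 1 array also breaks a pair, so these values mix genotype and pair.

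In all 5 genes the genotype difference was larger in the second pair than in the first, by 4.32 log2 units for Lcn2, 2.46 for Serpina3n, 1.92 for Saa3, 0.88 for C3 and 0.75 for C4bp in size. Of the 305 clusters listed as lower, 61.3% had the larger difference in the second pair, with a median change of -0.17, and 87.5% did after median centring. With 1 array per genotype in each pair, the difference between pairs has no replicate and was not tested. The second fold in the authors' deposited table, with wild type over hcatTg, was 63.2 for Lcn2, 25.3 for Serpina3n, 21.2 for C4bp, 10.7 for Saa3 and 4.91 for C3, and the first was between 3.02 and 8.91.

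**Figure D2:**
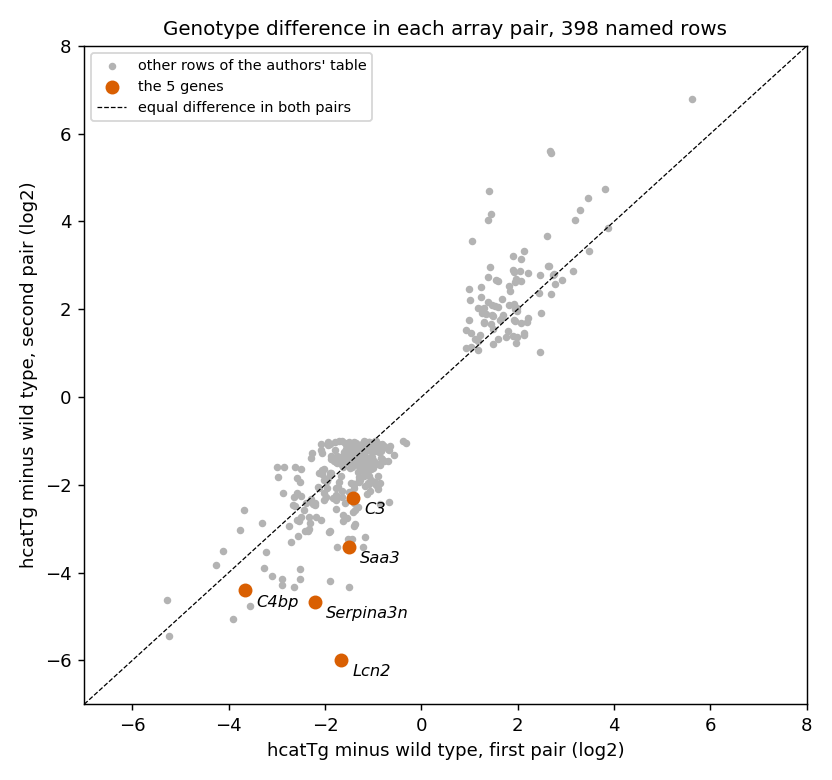
Genotype difference (hcatTg minus wild type, log2) in the first pair (horizontal axis) and the second pair (vertical axis) for the 398 named clusters, with the 5 genes in orange. All 5 lie below the dashed line of equal difference, with Lcn2 at -1.66 and -5.98.

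The choice of the genes did not use the mean change between the pairs, taken over both genotypes, so that contrast was tested. limma with a genotype term was fitted to all 35557 clusters. The second arrays were brighter as a whole, by a median of 0.21 log2 units in wild type and 0.60 in hcatTg. Against that shift, Saa3 was higher in the second pair by 4.08 log2 units, Lcn2 by 2.75, Serpina3n by 2.55, C3 by 2.28 and C4bp by 2.07. All 5 passed limma on the deposited values, with adjusted p from 8.12e-32 for Saa3 to 1.42e-08 for C4bp, and the same fit called 27.2% of all clusters and 63.6% of the 398 named ones higher. The named clusters were themselves shifted on this contrast, with a median of 0.96 against 0.40 over all clusters. Every cluster shared a single variance in that fit (SE 0.327), so its p-values follow the size of the difference alone. The shift was larger at higher levels. Among the 17779 clusters at or above the median level, its median was 0.69. There limma called 10990 clusters higher, with all 5 genes among them, so a call was common at such levels.

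Median centring subtracts a constant from each array, so a shift that grows with level is removed only in part. After it, limma called 3 of the 5 genes higher, against 11.1% of all clusters and 24.9% of the named ones. Saa3 was higher by 3.64 ± 0.553 (SE, adjusted p = 0.0353), C3 by 1.84 ± 0.322 (adjusted p = 0.0393) and C4bp by 1.63 ± 0.295 (adjusted p = 0.0400). Lcn2 (2.31 ± 1.11, adjusted p = 0.182) and Serpina3n (2.11 ± 0.676, adjusted p = 0.0885) did not pass. Among the 5 genes the genotype difference of these changed most between the pairs, and that change is the residual of this fit. After quantile normalization limma called 0 of the 5 genes and 0% of all clusters, while 4 of the 5 and 12588 clusters had an unadjusted p below 0.05, and the differences ran from 1.34 for C4bp to 3.55 for Saa3. Without the genotype term limma called 1 of the 5, beside 5614 of 35557 clusters and 12 of the named ones called higher. Leaving out 1 array as well leaves 1 array in a pair, so only differences are given. Without wild type replicate 2 they were -0.24 for Lcn2, 2.37 for Saa3, 0.22 for Serpina3n, 1.13 for C3 and -0.13 for C4bp. Without hcatTg replicate 2 they ran from 3.43 for C3 to 5.79 for Saa3. Without wild type replicate 1 they ran from 2.99 for C3 to 4.83 for Saa3. Without hcatTg replicate 1 they ran from 0.25 for C4bp to 3.33 for Saa3.

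The size of this change differed between the genotypes. Saa3 was higher on the second array by 5.04 in wild type and 3.12 in hcatTg, Serpina3n by 3.78 and 1.32, C3 by 2.72 and 1.84, and C4bp by 2.45 and 1.70. Lcn2 was higher by 4.91 in wild type and by 0.59 in hcatTg, close to the median shift of all clusters there, and its hcatTg difference became -0.02 after median centring and 0.14 after quantile normalization. Among all clusters, the wild type change ranked 21st for Saa3 and 29th for Lcn2. In hcatTg it ranked 25th for Saa3 and 17925th for Lcn2. Lcn2 was low on both hcatTg arrays, at percentiles 21.4 and 24.4. The Y-linked genes on the list read 3.57 to 4.79 on these arrays, and Lcn2 lay within that range. Saa3 also started low in hcatTg, at percentile 20.9. Whether the Lcn2 probes could show a small change at that level was not tested.

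The first arrays exist in a second version, as RMA signals in the authors' deposited table on another normalization. There Saa3 stood at 7.16 in wild type and 5.30 in hcatTg, which is 1.68 and 1.32 above the value table, while the named clusters were higher by a median of 0.80 and 0.67. With those signals for the first arrays, a description with no test, the mean change between the pairs was 2.58 for Saa3, 2.20 for Lcn2, 1.94 for Serpina3n, 1.62 for C3 and 1.20 for C4bp, and 0.20 in the median of the named clusters.

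The other acute-phase and complement genes named by the table went both ways between the genotypes. The table is selected on that contrast, so its genes describe it only, and genes outside it were not looked up. It lists 305 of its 398 clusters as lower, so a lower gene is common in it. Of the 16 genes named from the 5 lists below, other than the members, 12 were lower. Of 33 acute-phase genes 6 were named, all lower in hcatTg, with a median difference of -2.52. Beside Lcn2, Saa3 and Serpina3n these were Trf, which encodes the iron carrier transferrin (-2.58), Cp, the copper-binding ferroxidase ceruloplasmin (-2.15), and Hp, the haemoglobin-binding haptoglobin (-1.69). Hp lay at 6.59 and 9.16 in wild type and 5.19 and 7.19 in hcatTg, so the genotypes overlapped, as they did for Cp.

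Of 27 complement components 3 were named, again all lower in hcatTg. Beside C3 these were C1s, a protease of the classical pathway (-1.34), and Masp1, a protease of the lectin pathway (-1.55). Masp1 lay at 6.67 and 7.13 in wild type and 4.96 and 5.73 in hcatTg, without overlap, while C1s overlapped.

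Of 22 complement regulators and receptors 3 were named, 1 higher and 2 lower. Clu, which encodes the terminal-pathway inhibitor clusterin, was lower with C4bp, by a difference of -1.94. Serping1, the C1 inhibitor gene, was higher in hcatTg by 1.62. It lay at 5.95 and 7.98 in wild type and 7.19 and 9.98 in hcatTg, higher within each pair, though the genotypes overlapped. The regulators of this table thus did not all lie on one side, and none of the genes of these 3 lists passed limma between the genotypes on the deposited values without the replicate block.

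Of 34 genes for inducing cytokines, their receptors and their transcription factors 7 were named, 1 higher and 6 lower. Il6, the main inducer of acute-phase genes, lay at 6.41 and 8.12 in wild type and 3.92 and 5.37 in hcatTg. Cebpd, which encodes a C/EBP factor, lay at 6.68 and 8.98 against 5.78 and 6.88, with overlap. The interleukin 1 receptor genes Il1r1 and Il1rap (-1.83 and -1.43), the receptor gene Lifr (-2.86) and the cytokine gene Il33 (-3.53) were lower as well. Il1rl1, the receptor of interleukin 33, was higher by 2.40. Both named genes of the 11 for iron and siderophore handling were higher, the endocytic receptor gene Lrp2 by 2.81 and the ferroxidase gene Heph by 2.71. None of the 9 passed limma between the genotypes without the block. With the array pair as replicate block, all 16 named genes of these 5 lists other than the members passed, as did 378 of the 398 named clusters. Every cluster shared a single variance in that fit (SE 0.327). With block and median centring 19 named clusters passed, and with block and quantile normalization 0. The call therefore depends on the block and on the scaling.

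**Figure D3:**
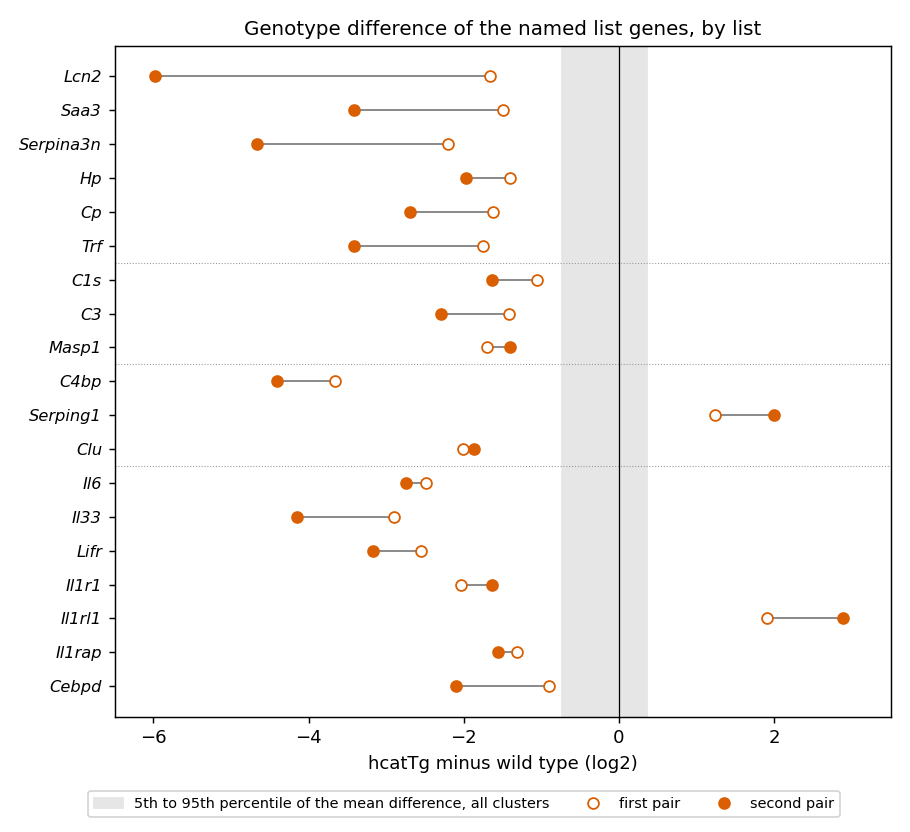
Genotype difference (horizontal axis, hcatTg minus wild type, log2) in the first pair (open) and second pair (filled) for the named genes of 4 lists, divided by dotted lines, from top to bottom acute phase, complement components, complement regulators and receptors, and inducing cytokines and signalling. Serping1 and Il1rl1 are the genes higher in hcatTg, and the grey band spans the 5th to 95th percentile of the mean difference of all clusters, -0.74 to 0.36.

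Between the pairs, the genes of these lists that limma called were all higher in the second pair. That direction was common to the calls. Higher were 253 of the 254 named clusters called on the deposited values and 99 of the 103 called after median centring. Over all clusters these were 9672 of 9820 and 3931 of 5990. Of the 16 named genes of these 5 lists other than the members, 11 were called higher in the second pair by limma on the deposited values and 7 after median centring, beside the 63.6% and 24.9% of the named clusters given above. After centring, Cp was higher by 2.85 ± 0.363 (SE, limma adjusted p = 0.0323), C1s by 2.65 ± 0.262 (adjusted p = 0.0321), Serping1 by 1.97 ± 0.180 (adjusted p = 0.0321) and Hp by 1.84 ± 0.259 (adjusted p = 0.0336). Clu (1.36), Il6 (1.14) and Il1r1 (0.85) passed too. Cebpd (1.25, adjusted p = 0.0847) and Trf (0.73, adjusted p = 0.307) did not. After quantile normalization limma called none of the 16, with 12 of them higher in the second pair and 7 at an unadjusted p below 0.05, and the differences were 2.59 for Cp, 2.29 for C1s and 1.63 for Hp.

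**Figure D4:**
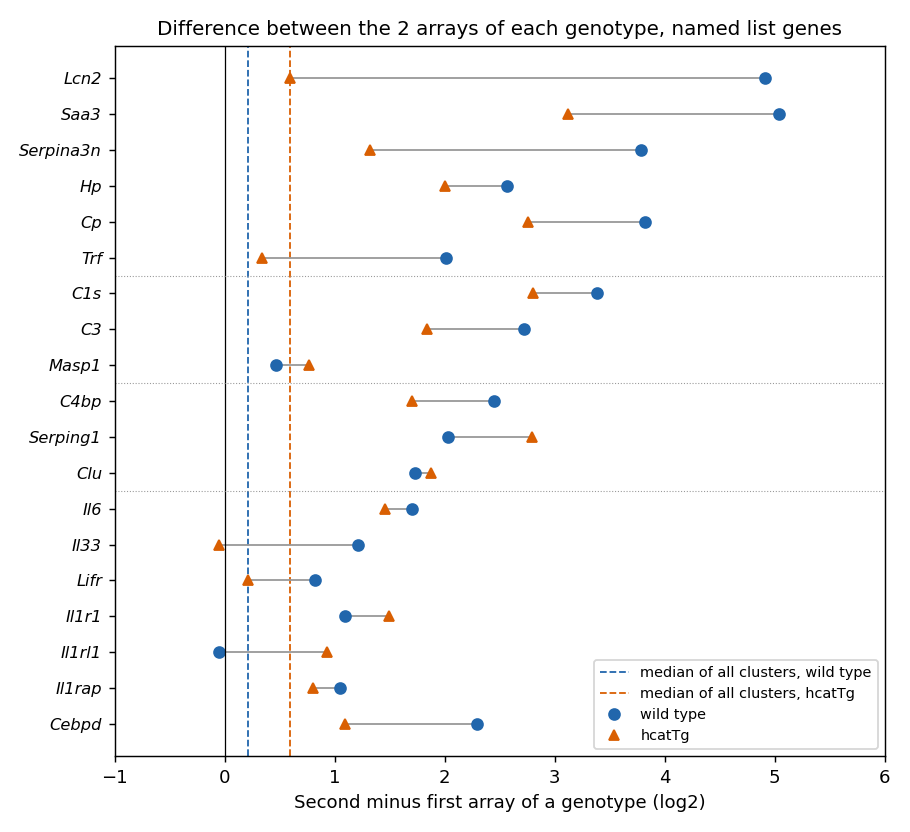
Second minus first array of each genotype (horizontal axis, log2) for the named genes of the same 4 lists, with wild type as circles, hcatTg as triangles and dashed lines at the median of all clusters, 0.21 and 0.60. Lcn2 has the widest gap between the genotypes, 4.91 in wild type against 0.59 in hcatTg, where its level was low on both arrays.

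Likeness was measured over the 4 arrays as the root mean square difference between profiles centred on their own means, within the 398 named clusters. Lcn2 was nearest to Serpina3n (0.514 log2 units), then to the pericyte gene Rgs5 (0.70) and C4bp (0.961). Serpina3n was nearest to Rgs5 (0.396), then to Lcn2 and C4bp (0.573). Saa3 was nearest to Cp (0.474), C1s (0.816) and the selenoprotein P gene, listed as Sepp1 (0.848). C3 was nearest to Cpz (0.081), Hp (0.113) and Fhl1 (0.159), and C4bp to Gpm6a (0.396), Peg3 (0.446) and Adamts9 (0.546). The distance was 1.33 between Lcn2 and C3 and 1.31 between Saa3 and C4bp, against medians over the table of 1.89, 1.77, 1.47, 0.840 and 1.48 for Lcn2, Saa3, Serpina3n, C3 and C4bp. C3 lay 0.984 from Saa3, 0.893 from Serpina3n and 1.09 from C4bp. It was thus farther from every other member than its own median, while the distances of the other members were below their medians.

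Markers of cell types and sex moved with the genotypes. Only Kdr and Eng of 15 endothelial markers were named, so the labelled cell type could be checked on these alone: Kdr lay at 5.63 and 4.67 in wild type and 6.68 and 8.24 in hcatTg, and Eng at 9.57 and 10.15 against 8.40 and 8.71. The 5 named of 12 smooth muscle and pericyte markers were all lower in hcatTg, beside 305 of the 398 named clusters. The summed signal of these markers on the log2 scale was 10.38 and 12.17 in wild type and 8.63 and 10.55 in hcatTg. In the other lists the members went both ways, and a sum follows its brightest probe. Of 15 macrophage and leukocyte markers 3 were named, with Lyz2 (-1.88) and Lcp1 (-2.33) lower and Cd53 (2.46) higher, and their sum was 7.55 and 8.72 in wild type and 8.42 and 9.38 in hcatTg. Of 9 mesothelial markers 5 were named, 3 lower (Gpm6a, Upk3b and Wt1) and 2 higher (Msln and Upk1b), with sums of 10.86 and 11.65 against 10.45 and 9.97. Of 12 fibroblast markers 2 were named, Fbln1 lower (-2.15) and Mmp2 higher (3.01), with sums of 8.74 and 10.77 against 10.24 and 11.23. None of the 8 hepatocyte markers was named. The X-inactivation RNA Xist was 6.21 higher in hcatTg and all 4 Y-linked genes on the list were lower, so genotype and sex of the cells cannot be told apart. The part of these markers in the result was not tested, and in bulk RNA fewer cells of a type and less RNA per cell cannot be told apart.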

How the data were processed

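The deposited value table holds log2 signals for 35557 clusters on 4 arrays, with array medians of 5.40 to 6.02. The submitters' processing notes list Affymetrix Expression Console without a version, and the annotation and build behind the values are not stated in the sources used here. No filter on low values was applied, so all 5 genes entered each fit. The authors' deposited table holds log2 RMA signals of the first arrays, a linear ratio and signed fold scores, per the file headers. Its second fold equals the second-array difference of the value table within 9e-05 log2 units, and its first fold differs by 0.0618 to 0.501 for the 5 genes. All 5 symbols matched RefSeq through the accession.

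Differences were taken on the deposited log2 values. limma 3.58.1 in R 4.3.3 (lmFit, eBayes, Benjamini-Hochberg over all clusters, threshold 0.05) was tested on simulated data. The pairs come from that table, and same-pair deviations correlated at r = 0.689 across clusters. A two-sided exact permutation test of 2 against 2 arrays cannot go below p = 0.333. Precision is limited by having 4 arrays. The 5 genes, the lists and the tests were chosen with earlier results of these data known. Named genes are the members, the named genes of the lists, and the 3 nearest profiles per member. The marker lists are given as sums, and 1 item is not reported here. Alternatives were median centring, quantile normalization, the replicate block, a filter on level, an intensity trend, leaving out each array, each pair alone, and the authors' folds and first-array signals.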

Additional observations from a re-analysis of the deposited data

Results flagged for a closer look

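For 8 genes of the lists the 2 genotypes moved in opposite directions between the first and second array on the deposited values, and none of these differences was tested. The share over all clusters was not counted. The second arrays were brighter by a median of 0.21 in wild type and 0.60 in hcatTg. The positive changes of Lrp2, Msln and Wt1 were smaller than that. After median centring they would turn negative, and the genotypes would then move the same way. Kdr changed by -0.96 log2 units in wild type and 1.56 in hcatTg, a difference of 2.52 and the widest of the 8. Il33 changed by 1.21 and -0.05 (difference -1.26), Il1rl1 by -0.06 and 0.93 (0.99) and Lrp2 by -0.05 and 0.29 (0.34). The sex-linked genes Xist and Kdm5d changed by -0.05 and 1.12 (1.17) and by 1.13 and -0.03 (-1.16). The mesothelial markers Msln and Wt1 changed by 0.11 and -0.24 (-0.35) and by 0.16 and -0.19 (-0.35).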

How the results depend on the processing

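The genotype difference of the 5 genes kept its sign in 44 of 45 alternatives, and Saa3 without wild type replicate 2, at 0.0643, was the exception. The table was selected for a 2-fold difference in both pairs. That set, or nearly set, the sign in each pair alone and in the authors' folds, so this count is a description and no support. With 2 arrays a group, the move on leaving 1 out is bounded by their SD and shows no stability. With 1 array left out the difference ranged from -6.28 to -1.37 for Lcn2, -4.98 to 0.06 for Saa3, -5.33 to -1.54 for Serpina3n, -3.21 to -0.50 for C3 and -5.25 to -2.81 for C4bp. The limma count over all clusters between the genotypes, 3 on the deposited values, was 1161 with the array pair as replicate block, 24 when that block was combined with median centring, 42 with an intensity trend, 0 to 192 with 1 array left out, and 0 with median centring, quantile normalization, or block and quantile normalization, with 975, 1253 and 4189 at an unadjusted p below 0.05. Calls between the pairs numbered 9820 on the deposited values, 5990 with median centring and 0 with quantile normalization. They numbered 11119 of 17779 clusters with the filter on level, and 12008 with an intensity trend. Without the genotype term they numbered 5640, and 221 to 9078 when 1 array was left out of that same fit. Chosen after seeing the data, leaving out the 6636 lowest-numbered clusters gave 52 genotype calls, and 1554 with block and median centring, with 1 and 5 of the 5 genes among them. Between the pairs all 5 genes then passed with median centring, beside 13415 of the 28921 clusters left, 7003 of them higher. Of the named clusters 224 were called higher in that fit, so passing was common there. The change between the pairs was no longer past the threshold for Lcn2 (2.31 centred, 2.30 quantile-normalized), Serpina3n (2.11 and 1.94), Saa3 (3.55 quantile-normalized), C3 (1.45) and C4bp (1.34). The causes were not tested.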
